A study of Homo sapiens with 15 samples.

Results

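The HOX cluster genes are the 39 human genes named HOXA, HOXB, HOXC or HOXD with a paralog number, which lie in 4 clusters on different chromosomes. Each encodes a transcription factor with a homeodomain, the protein fold that binds DNA. They were taken from the deposited gene table by name alone, which gave 39 of its 60675 genes, without antisense RNAs or pseudogenes. The RNA came from HT1080, an established human fibrosarcoma cell line with mesenchymal character.

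Within a cluster the paralogs are arranged in the order in which they are used along the body axis. Genes at the 3′ end pattern the hindbrain and neck, and those at the 5′ end pattern the end of the trunk, the limb tips and the genital tract. HOX proteins bind DNA with PBX and MEIS cofactors. Their clusters are held silent by Polycomb complexes and kept active by MLL (trithorax) complexes, and retinoic acid opens them from the 3′ end. Cultured connective tissue cells keep a HOX pattern that reflects the body site they came from.

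The 4 groups of ribosomal-RNA-depleted total RNA libraries were these. Wild-type HT1080 cells were given 1 µM TMP195, an inhibitor of class IIa lysine deacetylases, for 2 days (3 libraries). The others received no treatment and carried a changed lysine deacetylase in its own gene: KDAC7 (HDAC7) with H709A (4 libraries), KDAC4 (HDAC4) with H803A (3 libraries with counts) and KDAC4 with H976Y (4 libraries). The series title speaks of inactive KDAC4 and KDAC7 and its design of inactivated or enhanced enzymes, and a tyrosine at the position of H976 is known to raise the activity of this class. The labels do not say whether the samples of a group were separate clones or cultures, so the p-values speak only of the spread among these libraries, and that spread may be technical. Untreated wild-type cells were not analysed here, so each comparison sets these groups against each other and none against unedited, untreated cells.

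Facts of the libraries bear on every comparison that follows. Total counts ran from 6151383 to 24297487 per library. The column of KDAC4 H803A replicate 4 held gene lengths and was left out. The libraries labelled KDAC7 H709A replicate 4 and KDAC4 H803A replicate 1 were the most alike of all pairs: over genes their mean chi-square was 2.6 times that of Poisson counting, against 3.43 to 299 times for the 18 pairs within groups. KDAC7 H709A replicate 1 was closest to KDAC4 H803A replicate 3 (35.2 times) and was 174 to 299 times from its own group. Genes of high GC content stood above those of low GC content by 1.19 on the log2 scale in KDAC7 H709A replicate 1 and by 1.36 and 1.29 in KDAC4 H803A replicates 2 and 3. The same difference lay between -1.11 and -0.48 in KDAC7 H709A replicates 2 to 4 and was -1.08 in KDAC4 H803A replicate 1. It lay between 0.35 and 0.53 with TMP195 and between -0.51 and -0.27 in KDAC4 H976Y, so these groups also differ in it without overlap. Whether KDAC7 H709A replicate 1 and KDAC4 H803A replicate 1 carry each other's labels was not tested. The labels were kept as given, so every value of these 2 groups holds for the libraries as labelled. Counts of calls are given with and without both libraries, as are called values that moved by over 1.5 times. Leaving both out keeps only replicates 2 and 3 of KDAC4 H803A, a choice made after these differences were seen. The SEs and shares called in those fits depend on that choice. The KDAC4 H803A libraries kept are GC-rich and those of KDAC7 H709A and KDAC4 H976Y GC-poor, so group and GC content coincide there. Mitochondrial ribosomal RNA took 16.1% to 31.5% of counts in KDAC4 H976Y libraries and at most 0.345% elsewhere, and its part in the results was not tested. HDAC7 itself ranged from 112 to 132 CPM (counts per 1000000 of the scaled library) with TMP195, 68.5 to 422 in KDAC7 H709A, 189 to 215 in KDAC4 H803A and 64.5 to 75.0 in KDAC4 H976Y. HDAC4 ranged from 4.44 to 40.1 CPM over all libraries. The mesenchymal markers summed to 3530 to 8610 CPM in every library, led by VIM at 2690 to 5640 CPM, while the blood markers PTPRC and HBB had no count.

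Cluster A (11 members) lies on chromosome 7, minus strand, and cluster B (10 members) on chromosome 17 at 48528526 to 48729178 of GRCh38, minus strand. Cluster C (9 members) lies on chromosome 12 at 53938765 to 54056030 and cluster D (9 members) on chromosome 2 at 176092891 to 176190907, both on the plus strand. HOXB13 starts 98.4 kb beyond the end of HOXB9, the paralog before it, whereas the other gaps between successive paralogs of cluster B are at most 11.1 kb. HOXB3 overlaps HOXB4, HOXB5 and HOXB6, and HOXB7 overlaps HOXB8 and HOXB9, in the GENCODE v29 annotation. Expected counts that are not whole are a sign of shared reads, and HOXB5, HOXB7, HOXB8 and HOXB9 had none in any library. HOXA10 had them in all 14 libraries, HOXD10 and HOXD11 in 13, HOXA6 and HOXC6 in 11, and HOXB4 and HOXC5 in 10. HOXB13 had them in 9, HOXB3 in 8, HOXC4 in 7, HOXA9 and HOXB6 in 6, HOXA7 in 2, and HOXA4 and HOXC13 in 1. The counts of these members are uncertain by the reads shared.

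RefSeq promoter windows of 250 bases were found for 20 of the 39 members (27 windows, build GRCh38.p14). They hold only HOXB1 of cluster B, 7 windows of HOXA3, and a window that HOXC4 and HOXC5 share and that was counted for each. Their median number of CpG dinucleotides was 19, against 11 over 35116 windows of all genes, and their observed to expected CpG ratio was 0.888 against 0.558. CpG density is a feature of promoters that Polycomb complexes occupy. The box CACGTG was in 8 of the 27 HOX windows (29.6%, against 6.34% of all windows), CCAAT in 18 (66.7% against 32.01%) and TATAAA in 5 (18.5% against 10.72%), counted on both strands. The MEF2 site, the sequence bound by the main DNA-binding partners of class IIa deacetylases, was in 0 of 27 windows (2.8% of all windows), which says only that these letters were not in these windows. In the 3 windows shown every CpG is in capitals: HOXA9, which fell in 3 of the comparisons, and HOXD13 and HOXD11, near neighbours in cluster D whose levels ran in opposite orders over the KDAC4 H803A libraries. They lie at chr7:27165538-27165787 (minus strand), chr2:176092471-176092720 and chr2:176107030-176107279 (plus strand), and end at the base before the RefSeq start.
HOXA9: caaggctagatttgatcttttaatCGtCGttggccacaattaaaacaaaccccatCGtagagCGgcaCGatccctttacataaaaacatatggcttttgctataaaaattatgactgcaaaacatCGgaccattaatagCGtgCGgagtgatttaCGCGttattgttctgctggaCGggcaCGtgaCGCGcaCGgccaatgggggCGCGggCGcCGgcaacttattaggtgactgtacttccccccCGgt
HOXD13: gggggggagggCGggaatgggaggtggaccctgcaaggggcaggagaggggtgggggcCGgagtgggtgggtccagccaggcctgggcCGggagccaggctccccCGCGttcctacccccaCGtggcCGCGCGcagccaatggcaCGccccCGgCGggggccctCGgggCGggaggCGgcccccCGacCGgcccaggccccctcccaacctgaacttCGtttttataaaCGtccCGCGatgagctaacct
HOXD11: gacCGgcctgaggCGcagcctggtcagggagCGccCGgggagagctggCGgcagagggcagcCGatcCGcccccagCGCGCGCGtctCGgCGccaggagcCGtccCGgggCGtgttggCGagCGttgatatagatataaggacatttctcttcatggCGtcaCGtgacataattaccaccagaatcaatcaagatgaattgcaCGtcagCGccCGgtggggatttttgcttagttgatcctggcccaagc

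HT1080 cells transcribed most HOX genes at low levels. A filter on low counts kept 30 of the 39 members: 9 of 11 in cluster A, 9 of 10 in B, 7 of 9 in C and 5 of 9 in D. The other 9 had between 1 and 20 counts over all 14 libraries together. They were HOXA7, HOXA11, HOXB1, HOXC11, HOXC12 and the cluster D members HOXD1, HOXD3, HOXD4 and HOXD12. Cluster D was thus read at HOXD8, HOXD9, HOXD10, HOXD11 and HOXD13, and silent, or nearly so, at HOXD12 and at its 3′ end. A kept member may have passed only through the group in which it was high.

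Set per kb of effective transcript length and averaged over the 4 groups, HOXB6 was the highest member (25.8 CPM per kb), followed by HOXB2 (24.4), HOXB9 (21.4), HOXB13 (17.3) and HOXA9 (17.3). In TMP195 libraries the order was led by HOXB9 (22.4 CPM per kb), and in KDAC4 H976Y libraries by HOXA9 (23.1 CPM per kb). The summed level of all 39 members was 216, 216 and 223 CPM with TMP195, 852, 275, 259 and 337 CPM in KDAC7 H709A, 313, 591 and 581 CPM in KDAC4 H803A, and 183, 189, 180 and 171 CPM in KDAC4 H976Y. KDAC4 H976Y libraries were lowest without overlap. The 3 highest sums were the libraries with the strongest GC-rich bias, KDAC7 H709A replicate 1 and KDAC4 H803A replicates 2 and 3. Without HOXB13, cluster B summed to 123, 128 and 132 CPM with TMP195, 315, 140, 129 and 185 CPM in KDAC7 H709A, 170, 271 and 304 CPM in KDAC4 H803A, and 81.6, 79.7, 76.1 and 73.3 CPM in KDAC4 H976Y. Cluster A did not follow that order: it summed to 37.4 to 39.8 CPM with TMP195, 43.2 to 61.9 in KDAC7 H709A, 39.6 to 57.0 in KDAC4 H803A and 48.8 to 59.1 in KDAC4 H976Y. In bulk RNA, fewer expressing cells and less RNA per cell cannot be told apart.

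**Figure D1:**
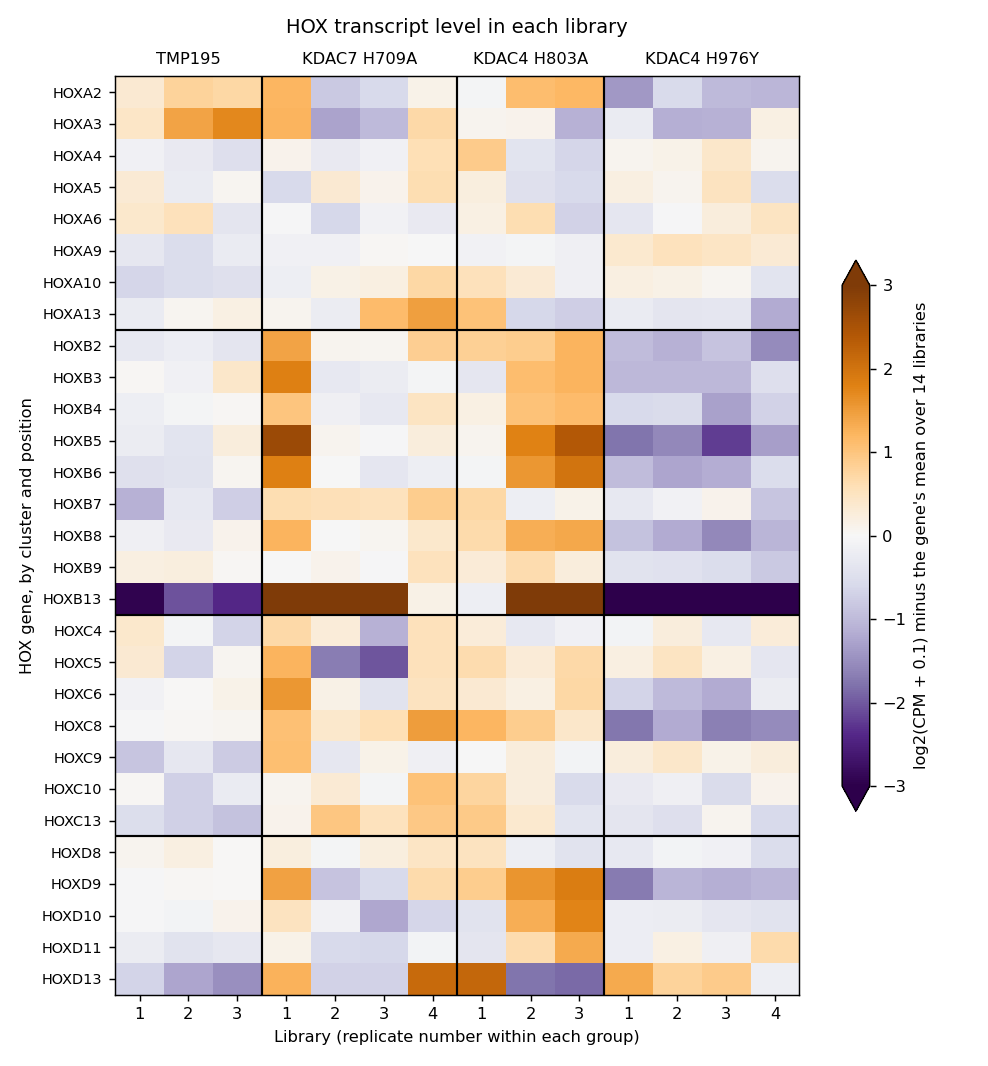
Level of members that passed the filter in each of the 14 libraries, as log2(CPM + 0.1) minus the mean of the gene over the libraries (colour limited to -3 to 3), ordered by cluster and paralog number. HOXB5, HOXB6 and HOXB13 are lowest in the 4 KDAC4 H976Y libraries and highest in KDAC7 H709A replicate 1 and KDAC4 H803A replicates 2 and 3, while HOXB7 is lowest in TMP195 replicate 1.

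Members differed widely in how far they ranged. HOXD8, which patterns the trunk with its cluster neighbours, varied 2.05-fold between its lowest and highest library (5.15 to 10.6 CPM). HOXA9, a regulator of blood progenitors that drives some leukaemias when overexpressed, varied 2.07-fold (14.1 to 29.1 CPM). At the other end HOXD13 varied 20.1-fold (0.439 to 8.8 CPM) and HOXB5 31.3-fold (1.52 to 47.5 CPM), while HOXB13 went down to 0 in a library and up to 392 CPM. KDAC7 H709A replicate 1 held the highest value of 9 of the 30 members, and KDAC7 H709A replicate 4 and KDAC4 H803A replicate 3 of 6 each. KDAC4 H976Y libraries held the lowest value of 14.

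KDAC4 H803A against KDAC4 H976Y sets the 2 changed forms of the same enzyme against each other. In KDAC4 H803A 12 of 30 members rose and 2 fell, so that 46.7% were called, against 15.1% of all 17780 genes tested (9.21% higher and 5.85% lower; edgeR quasi-likelihood test, Benjamini-Hochberg adjusted p under 0.05). The median log2 fold change was 0.62 over the members and 0.09 over all genes. The members that rose were 8 of the 9 tested in cluster B, HOXA2 in cluster A, HOXC8 in cluster C, and HOXD9 and HOXD10 in cluster D. HOXA9 in cluster A was among those that fell. In 14 members the KDAC4 H803A and KDAC4 H976Y libraries did not overlap, or 46.7% of the members, against 23.1% of all genes. In place of 14 calls there were 9 without KDAC4 H803A replicate 2 and 8 without KDAC4 H803A replicate 3, and 9 without KDAC4 H976Y replicate 2 or 3. Without KDAC4 H803A replicate 1 and KDAC7 H709A replicate 1 together, 14 members rose and 3 fell, while 60.6% of all genes were called. The share of members called was then not above that of all genes.

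KDAC7 H709A against KDAC4 H976Y gave 10 members that rose and 1 that fell in KDAC7 H709A, or 36.7% of the 30, against 12.5% of all genes tested (7.28% higher and 5.19% lower). The median log2 fold change was 0.80 over the members and 0.09 over all genes. Cluster B gave 7 of its 9 tested members, and the others that rose were HOXC6, HOXC8 and HOXD9, while HOXA9 fell. In 15 members the libraries of the groups did not overlap, against 20.1% of all genes. In place of 11 calls there were 6 without KDAC4 H976Y replicate 1 or 2, 5 without KDAC4 H976Y replicate 3, 7 without KDAC7 H709A replicate 1 and 5 without KDAC7 H709A replicate 4. Without KDAC7 H709A replicate 1 and KDAC4 H803A replicate 1 together, 14 members rose and 1 fell, while 33.9% of all genes were called. Both comparisons use the same 4 KDAC4 H976Y libraries, so they are not independent, and the values of each are given side by side below.

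**Figure D2:**
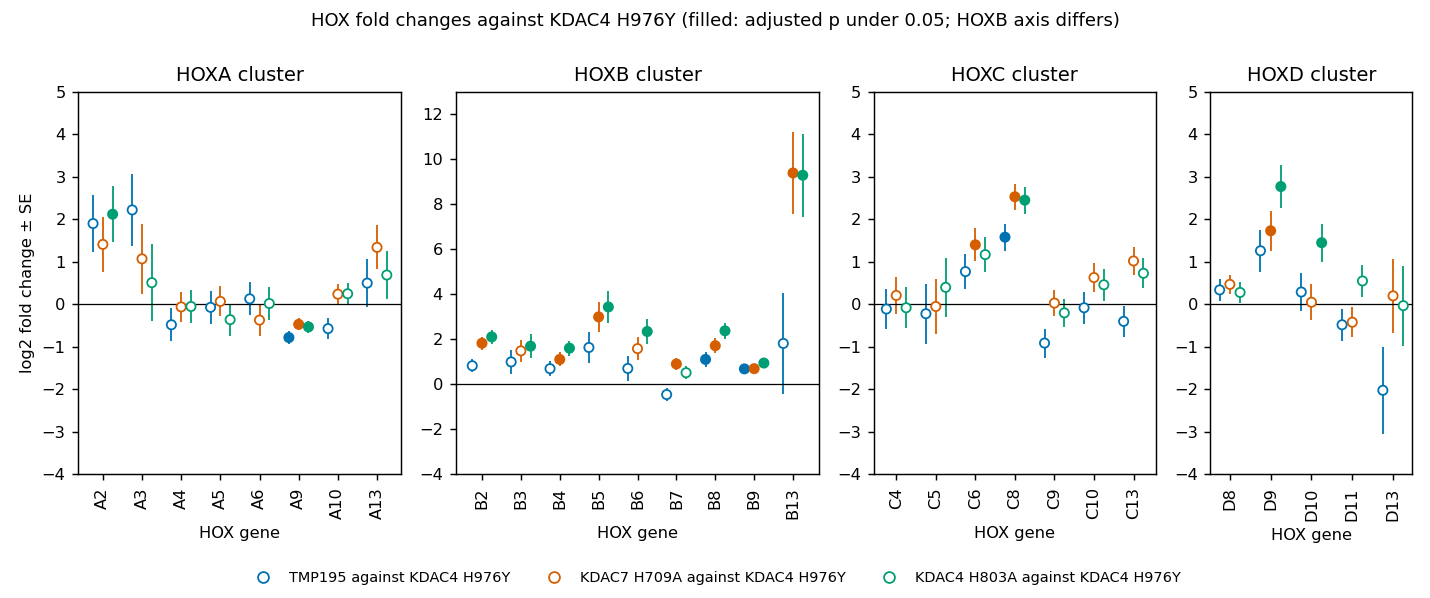
Log2 fold change ± SE of tested members against KDAC4 H976Y, by cluster, for TMP195, KDAC7 H709A and KDAC4 H803A; filled points passed an adjusted p of 0.05, and the HOXB axis covers a wider range. All 9 HOXB members lie above 0 for KDAC7 H709A and KDAC4 H803A, while cluster A members lie on both sides.

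HOXB13, the most 5′ gene of cluster B and a partner of the androgen receptor in prostate, had the widest difference. It had 0.381, 0.794 and 0.602 CPM with TMP195, 392, 33.8, 30.2 and 4.02 CPM in KDAC7 H709A, 3.17, 183 and 135 CPM in KDAC4 H803A, and 0.141, 0.319, 0.108 and 0 CPM in KDAC4 H976Y. The 7 libraries of the KDAC7 H709A and KDAC4 H803A groups were all above the 7 others, yet they spread from 3.17 to 392 CPM among themselves. HOXB13 alone made up 46.0% of the summed HOX level in KDAC7 H709A replicate 1, and 31.0% and 23.2% in KDAC4 H803A replicates 2 and 3. The log2 fold change was 9.39 ± 1.82 (SE) in KDAC7 H709A against KDAC4 H976Y (adjusted p = 0.00477) and 9.29 ± 1.84 in KDAC4 H803A against KDAC4 H976Y (adjusted p = 0.0059). Only 5 counts in all stood in the 4 KDAC4 H976Y libraries, so the size of these folds is set by a few reads. The log2 fold changes without KDAC7 H709A replicate 1 and KDAC4 H803A replicate 1 were 7.03 ± 0.87 and 9.81 ± 0.81. Both calls held under each of the 23 alternatives (highest adjusted p 0.0221 and 0.0256). The prostate marker TMPRSS2 had no count in any library.

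HOXB2, a hindbrain patterning gene, was the second highest member per kb. It had 19.3, 20.6 and 18.2 CPM with TMP195, 63.5, 25.1, 24.6 and 42.5 CPM in KDAC7 H709A, 42.2, 43.8 and 55.7 CPM in KDAC4 H803A, and 12.0, 10.8, 12.7 and 8.03 CPM in KDAC4 H976Y. TMP195 libraries lay between those of KDAC4 H976Y and both other groups, with no overlap. HOXB2 rose by a log2 fold change of 1.83 ± 0.29 in KDAC7 H709A (adjusted p = 0.00147) and of 2.11 ± 0.31 in KDAC4 H803A (adjusted p = 0.00103), each against KDAC4 H976Y, and both calls held under all 23 alternatives.

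HOXB5, in mouse a marker of long-term blood stem cells, had 6.29, 5.68 and 8.76 CPM with TMP195, 47.5, 7.9, 7.26 and 8.85 CPM in KDAC7 H709A, 7.79, 26.1 and 38.7 CPM in KDAC4 H803A, and 2.11, 2.45, 1.52 and 2.88 CPM in KDAC4 H976Y. KDAC7 H709A replicate 1 stood far above the other 3 libraries of its group, and KDAC4 H803A replicate 1 far below the other 2 of its group. HOXB5 rose by 3.00 ± 0.68 on the log2 scale in KDAC7 H709A (adjusted p = 0.0113) and by 3.44 ± 0.71 in KDAC4 H803A (adjusted p = 0.00729) against KDAC4 H976Y. With both of KDAC7 H709A replicate 1 and KDAC4 H803A replicate 1 left out, the log2 fold changes were 1.89 ± 0.25 and 3.84 ± 0.26. The call in KDAC7 H709A was lost in 1 of the 23 alternatives (highest adjusted p 0.0594). HOXB6 showed the same order, with 74.4 CPM in KDAC7 H709A replicate 1 against 16.6 to 20.9 in the rest of that group, and 20.2, 62.6 and 83.6 CPM in KDAC4 H803A. It had 15.5 to 21.9 CPM with TMP195 and 8.83 to 14.6 CPM in KDAC4 H976Y. HOXB6 rose in KDAC4 H803A (log2 fold change 2.35 ± 0.54, adjusted p = 0.0135) and this call was lost without KDAC4 H803A replicate 3 (adjusted p = 0.0623; 4.34e-07 to 0.0651 over the alternatives). In KDAC7 H709A its log2 fold change was 1.59 ± 0.51 (adjusted p = 0.0588).

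HOXB8, which in mouse can keep myeloid progenitors dividing, had 3.62, 3.3 and 4.35 CPM with TMP195, 9.56, 3.99, 4.19 and 5.24 CPM in KDAC7 H709A, 6.46, 10.1 and 10.6 CPM in KDAC4 H803A, and 2.11, 1.7, 1.3 and 1.85 CPM in KDAC4 H976Y. All 10 libraries of the first 3 groups were above all 4 of KDAC4 H976Y. The log2 fold change against KDAC4 H976Y was 1.72 ± 0.34 in KDAC7 H709A (adjusted p = 0.00484) and 2.38 ± 0.35 in KDAC4 H803A (adjusted p = 0.0012), and both calls held under all 23 alternatives. HOXB4, which expands blood stem cells when overexpressed, had 10.5, 11.5 and 12.2 CPM with TMP195, 23.8, 10.7, 9.7 and 16.6 CPM in KDAC7 H709A, 13.6, 24.8 and 26.3 CPM in KDAC4 H803A, and 7.88, 8.08, 4.76 and 7.41 CPM in KDAC4 H976Y. It rose by 1.61 ± 0.33 (log2) in KDAC4 H803A (adjusted p = 0.0075), a call that held under all 23 alternatives. The rise in KDAC7 H709A was 1.11 ± 0.31 (adjusted p = 0.0343). That call was lost without any KDAC4 H976Y library, KDAC7 H709A replicate 1 or 4, or TMP195 replicate 1 or 2 (adjusted p = 0.0504 to 0.105).

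HOXB9, a gene of the thoracic skeleton in mouse, was among the highest in every group: 53.8, 54.5 and 48.0 CPM with TMP195, 46.4, 50.6, 45.9 and 67.3 CPM in KDAC7 H709A, 57.8, 73.3 and 55.8 CPM in KDAC4 H803A, and 35.1, 35.0, 32.4 and 26.6 CPM in KDAC4 H976Y. Its rise was the smallest of the cluster B calls in KDAC4 H803A, with a log2 fold change of 0.95 ± 0.18 (adjusted p = 0.00537), and 0.70 ± 0.17 in KDAC7 H709A (adjusted p = 0.0181). The call in KDAC4 H803A was lost in 1 of the 23 alternatives (highest adjusted p 0.0861). The call in KDAC7 H709A was lost without KDAC4 H976Y replicate 3 or KDAC7 H709A replicate 4 (adjusted p = 0.0523 and 0.056), and without a filter on low counts (0.0648). It was also lost with a block on replicate number, alone or with GC and length offsets (highest adjusted p over the alternatives 0.0816). HOXB3 had 10.6, 9.46 and 13.8 CPM with TMP195, 36.7, 8.42, 8.83 and 9.89 CPM in KDAC7 H709A, 8.23, 22.6 and 24.5 CPM in KDAC4 H803A, and 5.07, 5.11, 5.09 and 7.41 CPM in KDAC4 H976Y. It rose in KDAC4 H803A (1.70 ± 0.52, log2; adjusted p = 0.0427), a call lost without KDAC4 H803A replicate 2 or 3, KDAC4 H976Y replicate 1, 2 or 3, or any TMP195 library (adjusted p = 0.0582 to 0.154).

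HOXB7 was ordered differently from its cluster. It had 3.75, 6.72 and 4.95 CPM with TMP195, 12.9, 12.3, 12.0 and 15.4 CPM in KDAC7 H709A, 13.7, 7.36 and 9.1 CPM in KDAC4 H803A, and 6.76, 7.66, 8.99 and 4.53 CPM in KDAC4 H976Y. It was even across KDAC7 H709A libraries, replicate 1 included, and above all KDAC4 H976Y libraries there. The log2 fold change was 0.91 ± 0.27 (adjusted p = 0.0456), and leaving out any of 12 libraries ended this call, all but KDAC4 H803A replicates 1 and 2 (adjusted p = 0.055 to 0.122).

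**Figure D3:**
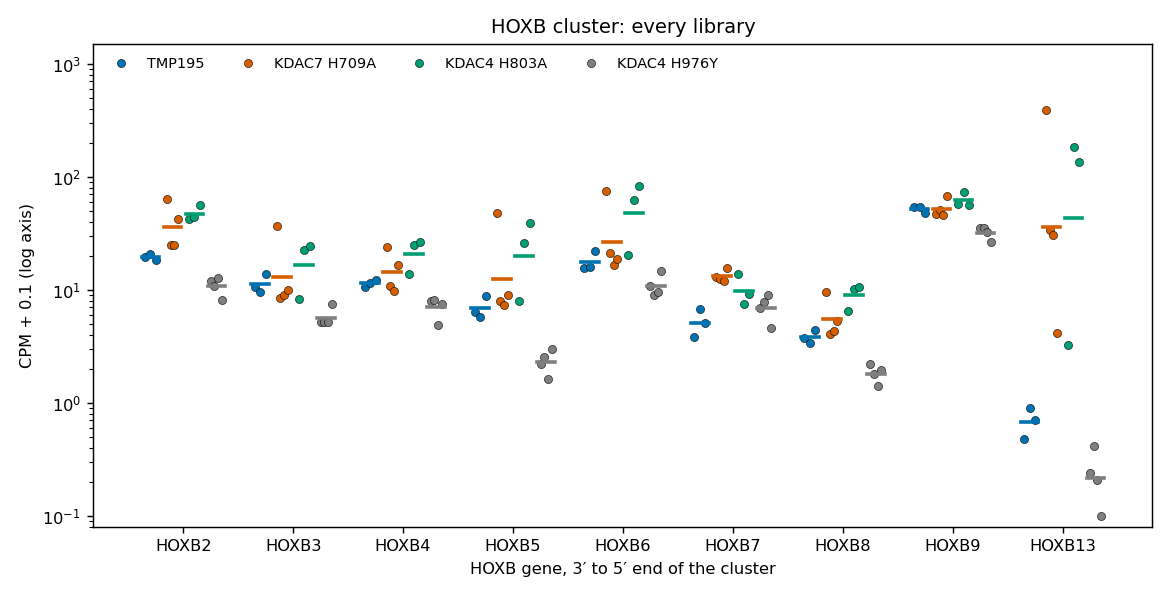
CPM + 0.1 (log axis) of the 9 tested HOXB members in every library, from the 3′ to the 5′ end of the cluster, with a bar at the geometric mean of each group. The KDAC4 H976Y points are the lowest group for 8 of the 9 genes, HOXB7 being the exception, and the HOXB13 points span from 0 to 392 CPM.

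HOXC8, which patterns thoracic vertebrae and lower neck motor neurons in mouse, gave the smallest adjusted p of any member. It had 4.89, 5.07 and 5.15 CPM with TMP195, 10.6, 6.51, 7.64 and 14.2 CPM in KDAC7 H709A, 11.7, 9.3 and 6.69 CPM in KDAC4 H803A, and 1.41, 2.13, 1.52 and 1.65 CPM in KDAC4 H976Y. The groups with KDAC7 H709A and KDAC4 H803A overlapped each other, the TMP195 libraries lay below both, and KDAC4 H976Y lay below all. HOXC8 rose by 2.53 ± 0.30 on the log2 scale in KDAC7 H709A (adjusted p = 0.000242) and by 2.45 ± 0.32 in KDAC4 H803A (adjusted p = 0.000524) against KDAC4 H976Y. These calls held under all 23 alternatives (highest adjusted p 0.00245 and 0.00637). Without KDAC7 H709A replicate 1 and KDAC4 H803A replicate 1 the log2 fold changes were 2.52 ± 0.30 and 2.20 ± 0.34.

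HOXC6 was the other cluster C member that rose in KDAC7 H709A (1.40 ± 0.39, log2; adjusted p = 0.0314), although the groups overlapped. It had 18.8, 6.94, 4.69 and 8.97 CPM in KDAC7 H709A, against 3.94, 3.08, 2.71 and 5.36 CPM in KDAC4 H976Y. The call was lost without KDAC7 H709A replicate 1 or 4 or KDAC4 H976Y replicate 1, 2 or 3 (adjusted p = 0.051 to 0.102). HOXC4, HOXC5, HOXC9, HOXC10 and HOXC13 passed in neither comparison, with log2 fold changes against KDAC4 H976Y between -0.20 and 1.02.

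In cluster D, HOXD9 had 4.25, 4.46 and 4.41 CPM with TMP195, 12.1, 2.34, 2.88 and 7.0 CPM in KDAC7 H709A, 8.11, 13.3 and 16.1 CPM in KDAC4 H803A, and 1.27, 2.02, 1.95 and 2.06 CPM in KDAC4 H976Y. Every library of the other groups was above those of KDAC4 H976Y, by little in KDAC7 H709A replicates 2 and 3. It rose by 2.77 ± 0.50 (log2) in KDAC4 H803A (adjusted p = 0.00363), which held under all 23 alternatives, and by 1.73 ± 0.47 in KDAC7 H709A (adjusted p = 0.0299). The second call was lost without KDAC7 H709A replicate 1 or 4 or KDAC4 H976Y replicate 1, 2 or 3 (adjusted p = 0.0628 to 0.0928). HOXD10, a gene of the limb and of lumbar motor neurons in mouse, had 13.3, 8.68, 3.94 and 5.91 CPM in KDAC7 H709A, 7.03, 23.3 and 32.3 CPM in KDAC4 H803A, and 8.16, 7.98, 7.36 and 7.0 CPM in KDAC4 H976Y. Its log2 fold change in KDAC4 H803A was 1.45 ± 0.45 (adjusted p = 0.0452) although replicate 1 of that group lay inside the KDAC4 H976Y range. Leaving out any of 11 libraries ended that call, all but KDAC4 H803A replicate 1 and KDAC7 H709A replicates 1 and 3 (adjusted p = 0.0503 to 0.23).

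HOXD13, whose mutations change the number and form of the digits in humans, split the variant groups. It had 1.14, 0.733 and 0.602 CPM with TMP195, 4.63, 1.13, 1.13 and 8.55 CPM in KDAC7 H709A, 8.8, 0.484 and 0.439 CPM in KDAC4 H803A, and 4.93, 3.3, 3.57 and 1.65 CPM in KDAC4 H976Y. KDAC4 H803A replicate 1 and KDAC7 H709A replicate 4, the most alike libraries, had the highest values, and KDAC4 H803A replicates 2 and 3 had the lowest. No comparison of HOXD13 passed with all libraries. Without KDAC7 H709A replicate 1 and KDAC4 H803A replicate 1, it was lower in KDAC4 H803A than in KDAC4 H976Y by a log2 fold change of -2.89 ± 0.93. HOXD11, separated from HOXD13 by HOXD12, ran the other way in KDAC4 H803A, with 4.81, 9.69 and 15.9 CPM. It had 5.35, 7.02, 5.52 and 9.89 CPM in KDAC4 H976Y and passed in no comparison with all libraries.

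In cluster A, HOXA9 was lower in every other group than in KDAC4 H976Y. HOXA9 had 16.3, 14.1 and 17.0 CPM with TMP195, 18.5, 18.6, 20.8 and 20.2 CPM in KDAC7 H709A, 18.7, 19.4 and 18.2 CPM in KDAC4 H803A, and 26.2, 29.1, 27.8 and 25.1 CPM in KDAC4 H976Y. All 10 libraries of the first 3 groups were below all 4 of KDAC4 H976Y, and the spread within groups was small. The log2 fold change was -0.47 ± 0.14 in KDAC7 H709A (adjusted p = 0.0412) and -0.53 ± 0.15 in KDAC4 H803A (adjusted p = 0.034). Neither call was stable: the first was lost when any of 12 libraries was left out, all but KDAC4 H803A replicate 1 and KDAC4 H976Y replicate 4 (adjusted p = 0.0511 to 0.138). The second was lost without KDAC4 H803A replicate 2 or 3, KDAC4 H976Y replicate 1, 2 or 3, or any TMP195 library (adjusted p = 0.0529 to 0.133).

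HOXA2, which patterns the second pharyngeal arch, rose in KDAC4 H803A. It had 0.507, 1.26 and 1.32 CPM in KDAC4 H803A, against 0.141, 0.319, 0.217 and 0.206 CPM in KDAC4 H976Y, where the 4 libraries held 7 counts in all. Its log2 fold change of 2.12 ± 0.66 (adjusted p = 0.047) was lost when any of 10 libraries was left out (adjusted p = 0.0563 to 0.156), all but KDAC4 H803A replicate 1 and KDAC7 H709A replicates 1, 2 and 3. HOXA13, a gene of the limb tips and genital tract, passed in neither comparison, with 1.64, 1.3, 3.51 and 4.44 CPM in KDAC7 H709A, 3.29, 0.969 and 0.877 CPM in KDAC4 H803A, and 1.27, 1.17, 1.19 and 0.618 CPM in KDAC4 H976Y.

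**Figure D4:**
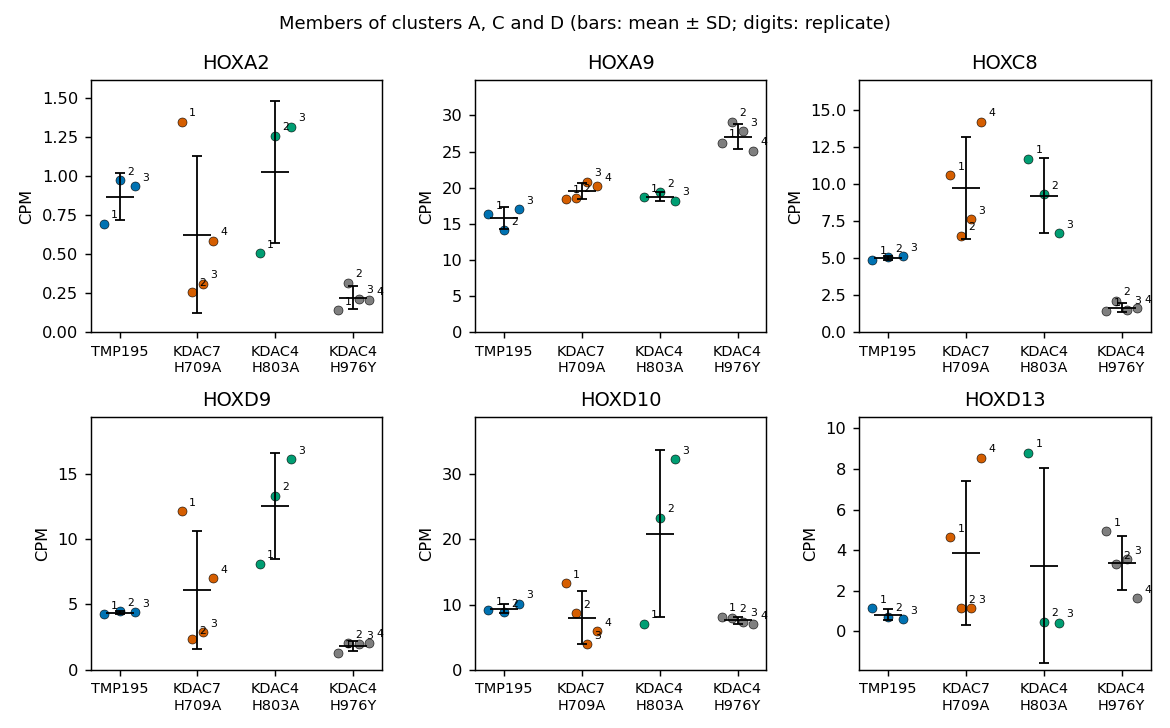
CPM of 6 members of clusters A, C and D in every library, with replicate numbers and the mean ± SD of each group. HOXA9 and HOXC8 separate KDAC4 H976Y from all other libraries, while the HOXD10 and HOXD13 values of KDAC4 H803A replicate 1 lie apart from replicates 2 and 3.

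KDAC7 H709A against KDAC4 H803A sets the alanine variants of the 2 enzymes side by side. No member was called, as was no gene of the 17780 (0.0%), in the edgeR quasi-likelihood test. Only 3 members had an unadjusted p under 0.05 and DESeq2 called 0 members. These were HOXD10 (log2 fold change -1.39 ± 0.44), HOXD11 (-0.96 ± 0.37) and HOXD9 (-1.04 ± 0.47), each with adjusted p = 0.634. The median over members was 0.02, the same as over all genes, and no member had groups that did not overlap (2.01% of all genes). This result rests on the libraries that stand apart. Without KDAC7 H709A replicate 1 and KDAC4 H803A replicate 1, 6 members were higher and 11 lower in KDAC7 H709A, or 17 of 30. Of all 18444 genes then tested 61.6% were called, so the share of members was below that of all genes. The 11 that were lower included HOXB6 (-1.90 ± 0.21), HOXB5 (-1.95 ± 0.25), HOXB13 (-2.78 ± 0.52) and HOXD10 (-2.12 ± 0.26). The 6 that were higher were HOXA5, HOXA13, HOXB7, HOXC13, HOXD8 and HOXD13, with HOXD13 at 3.05 ± 0.94 and HOXA13 at 1.82 ± 0.52. Leaving out KDAC4 H803A replicate 1 alone gave 3 calls.

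TMP195 is the inhibitor arm, where the summed HOX level was 216 to 223 CPM, against 171 to 189 CPM in KDAC4 H976Y. Against KDAC4 H976Y, 3 members rose with TMP195 and 1 fell, or 13.3% of the 30, against 16.5% of all genes tested (7.96% higher and 8.55% lower), so the share was near the background. HOXC8 rose (log2 fold change 1.58 ± 0.32, adjusted p = 0.00498), a call that held under all 23 alternatives. HOXB9 rose by 0.69 ± 0.18 (adjusted p = 0.0225) and HOXB8 by 1.11 ± 0.35 (adjusted p = 0.0467), and HOXA9 fell (-0.78 ± 0.15, adjusted p = 0.00447). The HOXA9 call was lost without a filter on low counts (adjusted p = 0.0659). The HOXB9 call was lost without any TMP195 or KDAC4 H976Y library (adjusted p = 0.0556 to 0.0961). The HOXB8 call was lost without these, KDAC7 H709A replicate 4, or KDAC4 H803A replicate 2 or 3 (adjusted p = 0.0543 to 0.154). The libraries did not overlap for 22 members, against 53.8% of all genes. The count of calls was 10 without KDAC7 H709A replicate 1 and 2 without any TMP195 or KDAC4 H976Y library. Without KDAC7 H709A replicate 1 and KDAC4 H803A replicate 1 together, 12 rose and 5 fell, while 48.3% of all genes were called.

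Against KDAC7 H709A, no member rose with TMP195 and 3 fell, or 10.0% against 6.29% of all genes (1.99% higher and 4.31% lower), and the median was -0.48 over members and -0.07 over all genes. HOXB13 fell by 7.57 ± 1.74 on the log2 scale (adjusted p = 0.0208), and by 5.25 ± 0.69 without KDAC7 H709A replicate 1 and KDAC4 H803A replicate 1. HOXB7 fell by 1.36 ± 0.30 (adjusted p = 0.018), and HOXC13, a hair and nail gene, by 1.42 ± 0.36 (adjusted p = 0.0345). HOXC13 had 2.41, 2.08 and 1.81 CPM with TMP195 and 3.76, 6.94, 5.07 and 6.79 CPM in KDAC7 H709A, without overlap. The HOXB13 call was lost without any TMP195 library (adjusted p = 0.10 to 0.109) and the HOXB7 call without TMP195 replicate 1 or 3 (adjusted p = 0.0951 to 0.113). The HOXC13 call was lost without any TMP195 library, KDAC7 H709A replicate 2, 3 or 4, or KDAC4 H976Y replicate 1 or 2 (adjusted p = 0.0534 to 0.157). Groups did not overlap for 7 members, against 24.3% of all genes. The count of calls was 7 without KDAC4 H803A replicate 1, 0 without TMP195 replicate 1 or 3 and 1 without TMP195 replicate 2. Without KDAC7 H709A replicate 1 and KDAC4 H803A replicate 1 together, 10 fell and none rose. Of all genes 47.6% were called, a larger share than among the members.

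Against KDAC4 H803A, 2 members fell with TMP195 and none rose, or 6.67% against 5.34% of all genes (1.56% higher and 3.78% lower): HOXB13 (-7.47 ± 1.75, log2; adjusted p = 0.0243) and HOXB2 (-1.28 ± 0.33, adjusted p = 0.0358). The median was -0.70 over members and -0.11 over all genes, and 15 members did not overlap, against 24.3% of all genes. Both calls, and so the whole count, were lost without KDAC4 H803A replicate 2 or 3 or any TMP195 library (adjusted p = 0.0512 to 0.121 for HOXB13 and 0.0683 to 0.139 for HOXB2). Without KDAC4 H803A replicate 1 the count was 9, and without KDAC7 H709A replicate 1 it was 6. Without both libraries, 12 members fell and none rose, a share near the 41.6% of all genes called.

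The members were also set beside the genes around their clusters. Among 71 tested genes within 1 Mb of a cluster, the median log2 fold change was 0.06 in KDAC7 H709A against KDAC4 H976Y (6 called higher and 8 lower). It was -0.22 in KDAC4 H803A against KDAC4 H976Y (10 higher and 10 lower). Both were larger shares called than the 12.5% and 15.1% of all genes, in that order. Of the 30 tested around cluster B, 2 rose and 2 fell in KDAC7 H709A, near the share of all genes. In KDAC4 H803A 5 rose and 2 fell, above that share. The 2 that rose in KDAC7 H709A also rose in KDAC4 H803A. ABI3, at most 4.17 CPM in any library, had log2 fold changes of 3.97 ± 1.02 in KDAC7 H709A (adjusted p = 0.0226) and 5.95 ± 1.00 in KDAC4 H803A (adjusted p = 0.0024). The transcription factor gene SP2 had 1.14 ± 0.20 in KDAC7 H709A (adjusted p = 0.00235) and 0.98 ± 0.21 in KDAC4 H803A (adjusted p = 0.00841). Some flanking genes of cluster B that were not called still differed between libraries. OSBPL7 had 79.0 CPM in KDAC7 H709A replicate 1 and 67.9 and 83.6 CPM in KDAC4 H803A replicates 2 and 3. It had 13.8 to 33.0 CPM elsewhere. CDK5RAP3 had 173, 199 and 224 CPM in those libraries and 35.6 to 83.5 CPM elsewhere. MRPL10 ran the other way, with 23.9, 26.5 and 22.5 CPM there and 36.0 to 64.5 CPM elsewhere. PRAC1 and PRAC2, which lie between HOXB9 and HOXB13, had no count.

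**Figure D5:**
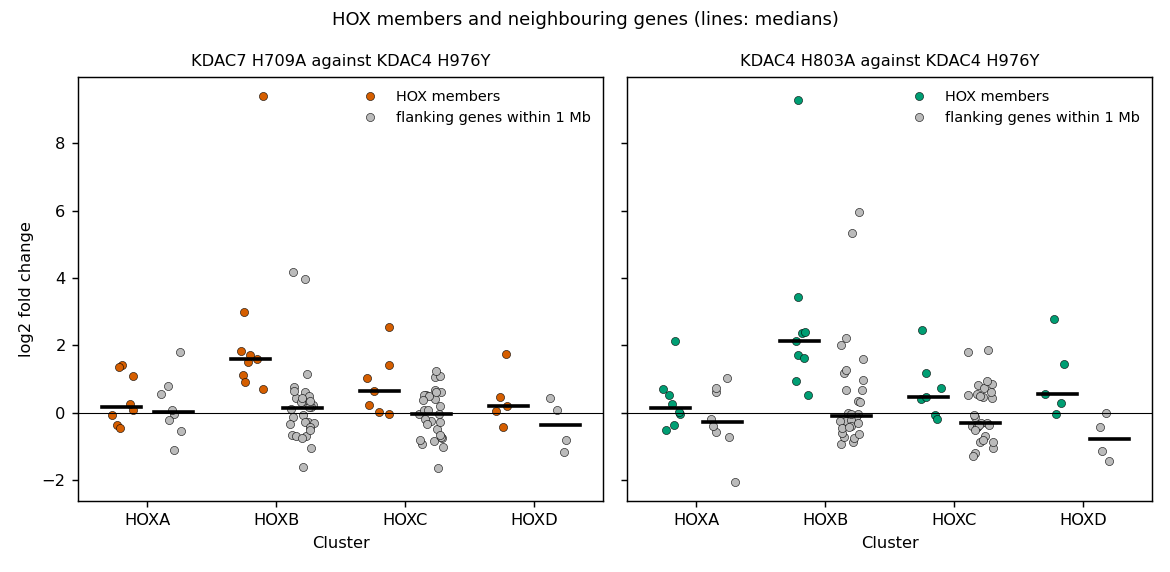
Log2 fold changes of the tested HOX members and of the genes within 1 Mb of each cluster, for KDAC7 H709A and KDAC4 H803A against KDAC4 H976Y; lines are medians. In cluster B the members' medians are 1.59 and 2.11, and the flanking genes lie around 0 with a few points above 2.

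Of 19 antisense and intergenic RNAs of the clusters, 9 were tested. HOXB-AS1 had 9.17 CPM in KDAC7 H709A replicate 1, 13.5 and 20.5 CPM in KDAC4 H803A replicates 2 and 3, and at most 4.15 CPM in every other library. HOXB-AS3 was highest in the same 3 libraries, at 10.4, 12.2 and 9.54 CPM. The strand setting of the counting is not given in the sources used here, so a gene and its antisense partner cannot be told apart.

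Lists of HOX regulators were read in the same fit. Of 9 cofactor genes 7 were tested. PBX2, a partner homeodomain protein, rose in KDAC7 H709A (log2 fold change 0.70 ± 0.20, adjusted p = 0.0365) and in KDAC4 H803A (1.10 ± 0.22, adjusted p = 0.00545) against KDAC4 H976Y. PBX3 (0.76 ± 0.23, adjusted p = 0.0446) rose in KDAC7 H709A. The 2 called in KDAC7 H709A were a larger share than over all genes (12.5%). The 1 in KDAC4 H803A was near that share (15.1%), and 7 genes are few. Of 29 Polycomb subunits and H3K27 demethylases, 2 rose and none fell in each of these comparisons, a smaller share than the 12.5% and 15.1% called over all genes. CBX7, which reads the H3K27 mark, rose by 1.73 ± 0.43 in KDAC7 H709A (adjusted p = 0.0193) and 1.68 ± 0.46 in KDAC4 H803A (adjusted p = 0.0273). The others were the methyltransferase EZH2 in KDAC7 H709A (0.88 ± 0.22, adjusted p = 0.0208) and PCGF2 in KDAC4 H803A (0.72 ± 0.22, adjusted p = 0.0438). With TMP195 against KDAC4 H976Y, CBX7 rose by 2.47 ± 0.46 (adjusted p = 0.00313), PHF19, a Polycomb accessory protein, by 0.79 ± 0.25 (adjusted p = 0.0496), and the EZH2 partner EED fell (-0.94 ± 0.20, adjusted p = 0.00652). In that comparison PBX2 (0.77 ± 0.21, adjusted p = 0.027), WDR5 (0.66 ± 0.20, adjusted p = 0.0355) and RXRA (1.15 ± 0.34, adjusted p = 0.035) also rose and the H3K4 demethylase gene KDM5B fell (-0.69 ± 0.17, adjusted p = 0.0144), where 16.5% of all genes were called. Of 17 MLL and trithorax genes, 1 rose in each comparison of these variants with KDAC4 H976Y, again a smaller share than over all genes: the chromatin reader PSIP1 in KDAC7 H709A (1.45 ± 0.38, adjusted p = 0.0245) and WDR5 in KDAC4 H803A (0.68 ± 0.20, adjusted p = 0.0347). Of 17 CDX and retinoid genes 7 were tested. The genes called were a larger share of these than of all genes in both comparisons, though 7 genes are few. ALDH1A3, which makes retinoic acid, fell in KDAC7 H709A (-1.85 ± 0.55, adjusted p = 0.0416) and KDAC4 H803A (-2.39 ± 0.62, adjusted p = 0.0227). RARG fell in KDAC7 H709A (-0.81 ± 0.20, adjusted p = 0.0197), and the receptors RXRA (1.21 ± 0.34, adjusted p = 0.0315) and RARA (0.71 ± 0.21, adjusted p = 0.0401) rose in KDAC4 H803A. With TMP195 against KDAC7 H709A, PSIP1 fell (-1.53 ± 0.42, adjusted p = 0.0469) and RARG rose (0.95 ± 0.22, adjusted p = 0.02). No gene of these lists was called in KDAC7 H709A against KDAC4 H803A by edgeR, where no gene of the table was called.

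The median GC content of the 30 tested members was 54.4%, against 48.1% over all genes tested, and 10 of them lay in the upper quartile of GC content (at or above 55.9%). Offsets for GC content and length were also set in each library. With them, 13 members were called in KDAC7 H709A against KDAC4 H976Y and 14 in KDAC4 H803A against KDAC4 H976Y. The share of all genes called with these offsets is not given here, so these counts do not show whether members exceed it. Over all comparisons these offsets alone ended 3 calls and kept 31. The calls lost were HOXB7 in KDAC7 H709A against KDAC4 H976Y and HOXB9 with TMP195 against KDAC4 H976Y. HOXC13 with TMP195 against KDAC7 H709A was lost as well.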

How the data were processed

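The libraries were made from total RNA of HT1080 cells after removal of ribosomal RNA. The authors deposited expected counts per gene, 1 column a library, and the submitters' processing notes name Trimmomatic 0.39, Bowtie2 2.4.5, RSEM 1.3.3, DESeq2 1.38.2 and GRCh38 without giving their roles. The column of KDAC4 H803A replicate 4 was left out: 96.8% of 7608 genes with 1 transcript had their annotated length minus 248.86 there, against at most 0.237% in any other column. That column (a length, not a count, in the deposited table) supplied the effective lengths for levels per kb. No column of values was left without a sample (0).

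Expected counts were rounded to whole numbers. CPM and log2 values were computed here from counts scaled by trimmed mean of M-values; 1 CPM stood for 4.86 to 23.9 counts, which limits the precision of low members. Genes were kept by filterByExpr (minimum count 10, minimum total 15). All 14 libraries entered 1 quasi-likelihood fit in edgeR 4.0.16 (limma 3.58.1, R 4.3.3), without covariates, with 6 comparisons. Adjusted p is Benjamini-Hochberg over all 17780 genes, and called means under 0.05. Standard errors are the log2 fold change over the square root of F. Two-sided p-values are given throughout. The code was tested on simulated data. DESeq2 1.42.0 and 22 other settings were tried as alternatives. GENCODE v29 gave positions for 57055 of the gene IDs, and promoter windows came from RefSeq.

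Results of 1 member, and of an RNA overlapping it, are not reported here. Genes named are the other members, flanking genes within 1 Mb, and genes of the fixed lists that were called. The members and lists were chosen with earlier results of these data known.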

Additional observations from a re-analysis of the deposited data

Results flagged for a closer look

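In 60 sets of 4 libraries (the 30 members in KDAC7 H709A and in KDAC4 H976Y), the highest or lowest library was compared with the nearest of the others by Dixon's ratio at its 95% critical value. Chance alone marks about 1 in 20 such sets, and 8 stood out. Of these, 4 were KDAC7 H709A replicate 1, all in cluster B: HOXB13 at 392 CPM (4.02 to 33.8 in the others), HOXB6 at 74.4 CPM (16.6 to 20.9), HOXB5 at 47.5 CPM (7.26 to 8.85) and HOXB3 at 36.7 CPM (8.42 to 9.89). The same library had the GC-rich bias given above, and the part of that bias in these values was not tested.

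The other 4 were in KDAC4 H976Y, spread over replicates and small in size. HOXB3 had 7.41 CPM in replicate 4 (5.07 to 5.11 in the others) and HOXA13 0.618 CPM in replicate 4 (1.17 to 1.27). HOXA4 had 4.66 CPM in replicate 3 (3.66 to 3.83), and HOXD9 had 1.27 CPM in replicate 1 (1.95 to 2.06).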

How the results depend on the processing

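No call changed direction under any alternative. Of 781 comparisons of the 34 gene calls with an alternative, 600 kept the call and 181 lost it. Losses named for a member above are mainly those from leaving out a library. A block on replicate number ended 19 of the 34 calls, and 12 with GC and length offsets added. Fitting only the 2 groups compared ended 9, and another scaling of the libraries (RLE) ended 1, HOXB8 with TMP195 against KDAC4 H976Y. Calls are counted below over the 30 members. The share of all genes called also changes with the setting and is given only where stated. Counts without it, here and above, do not show whether members exceed all genes. Leaving out 1 library at a time gave 8 to 17 calls in KDAC4 H803A against KDAC4 H976Y (14 with all), 5 to 15 in KDAC7 H709A against KDAC4 H976Y (11) and 0 to 3 in KDAC7 H709A against KDAC4 H803A (0). With TMP195 it gave 0 to 9 against KDAC4 H803A (2), 2 to 10 against KDAC4 H976Y (4) and 0 to 7 against KDAC7 H709A (3). Without KDAC4 H803A replicate 1 and KDAC7 H709A replicate 1 the counts were 17 in KDAC7 H709A against KDAC4 H803A, and with TMP195 12 against KDAC4 H803A, 17 against KDAC4 H976Y and 10 against KDAC7 H709A. With GC and length offsets added they were 18 in KDAC7 H709A against KDAC4 H976Y, 14 in KDAC7 H709A against KDAC4 H803A, and with TMP195 9, 14 and 16 in the same order. Over all genes and without these offsets, leaving out those 2 libraries gave 11360 calls in KDAC7 H709A against KDAC4 H803A, against 0 with both kept.

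GC and length offsets alone gave 4 calls with TMP195 against KDAC4 H803A and 6 against KDAC7 H709A. DESeq2 gave 7 and 6 there, and over all genes 4377 calls in KDAC4 H803A against KDAC4 H976Y, where edgeR gave 2679. Fitting only the 2 groups compared gave 7 calls in KDAC7 H709A against KDAC4 H976Y, and with TMP195 1 against KDAC4 H803A and 15 against KDAC4 H976Y. Without a filter on low counts, TMP195 gave 1 call against KDAC4 H803A and 1 against KDAC4 H976Y. Without that filter HOXA9 lost its 3 calls, HOXB9 its calls in KDAC7 H709A and TMP195 against KDAC4 H976Y, and HOXA2, HOXB2, HOXB7, HOXB8 and HOXC13 a call each. The cause of these shifts was not tested.

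Replicate numbers did not pair the samples: over 19 same-number pairs the correlation of deviations ran from -0.69 to 0.36, with 5 over 0.1. A replicate block gave 8 calls in KDAC4 H803A against KDAC4 H976Y, 4 in KDAC7 H709A against KDAC4 H976Y, and with TMP195 1 against KDAC4 H803A, 2 against KDAC4 H976Y and 0 against KDAC7 H709A. With the block and the offsets together there were 8 calls in KDAC4 H803A against KDAC4 H976Y and 1 with TMP195 against KDAC7 H709A. The block ended the HOXB5 call in KDAC7 H709A against KDAC4 H976Y (adjusted p = 0.0594), and with offsets the HOXB9 call in KDAC4 H803A against KDAC4 H976Y (0.0861). Depth limits the low members most: HOXA2 and HOXB13 rest on 7 and 5 counts in KDAC4 H976Y.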
